A study of Mus musculus with 2 samples.

Results

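The genes described here are 48 genes that act in mitosis, chosen by name, out of 32285 genes in both count matrices. All 48 had unique molecular identifiers (UMIs, the tags by which single RNA molecules are counted) in both libraries, and all 48 passed the minimum of 100 UMIs over both. They were followed through the ciliary margin, progenitor, neurogenic and postmitotic cells of the mouse peripheral retina. The cells came from peripheral retina of E13.5 embryos that carried α-Cre, a transgene known to act in peripheral retina, and a TdTomato reporter, and were sorted for TdTomato. There were 2 single-cell RNA-seq libraries, 1 pigmented and 1 albino, each from 3 pooled embryos, and both carried the same transgene and reporter. The albino library has the strain label Swizz ICR. The pigmented library has the strain label Tyrc2j, which is known as the name of an albino tyrosinase allele and so goes against its title. The titles were followed, and if they were exchanged every albino over pigmented ratio would turn around. Pigmentation cannot be told apart from strain, pool, sex make-up and library: cells with Xist and no Y-linked UMI made up 29.2% of the pigmented library and 96.1% of the albino one. Each group is 1 library, so differences have no replicate check and were not tested. Intervals are exact at the 95% level and cover counting error only.

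A cell that divides first copies its DNA and then, in G2, builds up the machinery of mitosis. Cyclins A and B activate the kinase Cdk1. Polo and Aurora kinases then assemble the spindle, kinetochore proteins tie chromosomes to its microtubules, and a checkpoint holds back the anaphase promoting complex until all are attached. That complex, with Cdc20 and Ube2c, marks cyclin B and securin for destruction, and the central spindle then directs the cleavage of the cell. Most of these genes are transcribed in G2 and M under the MuvB complex with B-Myb and FoxM1 and are shut off in cells that leave the cycle. In the embryonic retina, progenitors divide at the apical surface, and those about to yield neurons switch on Atoh7.

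After filtering, 5741 pigmented cells (66299718 UMIs, median 10342 per cell) and 3462 albino cells (44823513 UMIs, median 11178.5) remained, with 8 barcodes in both libraries. Cells were clustered without the genes on the cell cycle lists, the 48 included, and without other genes correlated with the cycle. Class markers were not left out for such a correlation. Clusters were named "X-like" from marker genes. Ciliary margin zone (CMZ)-like cells numbered 1002 and 505 in the pigmented and albino library, retinal progenitor cell (RPC)-like cells 1831 and 924, neurogenic-like cells, which carry Atoh7, Neurog2 and Notch ligand RNA, 881 and 495, and transitional precursor-like cells 512 and 284. Postmitotic cells were the retinal ganglion cell (RGC)-like, photoreceptor-like and amacrine or horizontal-like cells together, 950 and 877 cells. Median UMIs per cell were 13591.5 and 12960 in CMZ-like, 9441 and 9781.5 in RPC-like, 9766 and 10473 in neurogenic-like and 11752.5 and 13467 in postmitotic cells.

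The promoters of these genes are known for 2 short elements, and both are shown here because the members' levels moved together across cells. The first is the cell cycle genes homology region, TTTGAA or its variant TTCGAA, a binding site of MuvB. The second is the CCAAT box, a binding site of NF-Y. RefSeq promoter windows (GRCm38.p6, 250 bases before to 50 after a start) were matched for 41 of the 48 members, in 44 windows, and Kif20a, Tpx2, Smc4, Incenp, Cdca2, Ccna2 and Aurkb had no entry. The 150 bases before the start of 6 members follow, 5′ to 3′ along the gene's strand, with every such element and box in capitals. On the other strand TTTGAA reads TTCAAA and CCAAT reads ATTGG.
Cdc20, chr4:118437344-118437493, minus strand: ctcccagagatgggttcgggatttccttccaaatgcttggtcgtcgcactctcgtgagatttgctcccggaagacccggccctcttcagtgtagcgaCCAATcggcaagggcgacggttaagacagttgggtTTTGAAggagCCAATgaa
Cdk1, chr10:69352913-69353062, minus strand: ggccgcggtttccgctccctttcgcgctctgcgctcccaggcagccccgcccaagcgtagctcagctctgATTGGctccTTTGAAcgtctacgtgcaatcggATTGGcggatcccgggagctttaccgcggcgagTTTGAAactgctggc
Top2a, chr11:99024190-99024339, minus strand: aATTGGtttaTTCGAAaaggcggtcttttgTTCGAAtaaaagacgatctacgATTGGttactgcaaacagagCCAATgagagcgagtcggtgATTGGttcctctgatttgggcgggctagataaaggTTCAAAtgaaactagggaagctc
Ube2c, chr2:164769779-164769928, plus strand: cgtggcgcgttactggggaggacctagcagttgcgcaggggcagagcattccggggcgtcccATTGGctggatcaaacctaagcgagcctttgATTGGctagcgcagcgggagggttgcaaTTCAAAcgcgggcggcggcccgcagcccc
Ccnb2, chr9:70421555-70421704, minus strand: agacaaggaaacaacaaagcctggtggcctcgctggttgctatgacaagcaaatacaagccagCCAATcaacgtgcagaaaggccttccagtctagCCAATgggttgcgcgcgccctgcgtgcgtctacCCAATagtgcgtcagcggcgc
Ccnb1, chr13:100786487-100786636, minus strand: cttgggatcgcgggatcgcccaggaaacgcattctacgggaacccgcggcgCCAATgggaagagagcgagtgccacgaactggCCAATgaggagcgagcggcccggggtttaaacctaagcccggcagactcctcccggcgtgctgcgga

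Cdc20, Cdk1, Top2a and Ube2c hold both kinds of element within these bases, and Ccnb2 and Ccnb1 show CCAAT boxes alone there. Outside the printed bases Ccnb2 also holds TTTGAA, 1 farther upstream and 1 in the first 50 bases after the start. Ccnb1 holds neither TTTGAA nor TTCGAA in its whole window. In the last 100 bases before the start and the first 50 after it, TTTGAA or TTCGAA on either strand stood in 34 of 44 member windows (77.3%), in 28 of 61 windows of other mitosis genes (45.9%) and in 2821 of 32851 windows of all genes (8.59%). The first 50 bases after the start alone held TTTGAA in 47.7% of member windows and 2.25% of all windows. In the 250 upstream bases alone, the shares with TTTGAA or TTCGAA were 40.9% of member windows and 17.1% of all. The upstream bases were the region set for this count, and the window past the start was added to it. Ect2, Prc1 and Psrc1 entered with overlapping windows, so an element in the overlap was counted in each. CCAAT on either strand was in the upstream bases of 36 of 44 member windows (81.8%) against 33.8% of all, and 2 or more boxes were in 54.5% against 10.1%. The CCAAT boxes were most frequent between 100 bases upstream and the start, in 22 of 44 member windows between 100 and 51 bases upstream and in 23 in the last 50. CCAAT ends in the T that begins TTTGAA and TTCGAA, so a box and an element may share that base, and each was counted. A match says only that these letters are there.

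Together the 48 genes took 0.487% of the UMIs of pigmented and 0.592% of albino CMZ-like cells, 0.680% and 0.636% in RPC-like cells and 1.01% and 1.05% in neurogenic-like cells. Neurogenic-like cells thus held the highest level in both libraries, and among the 7 retinal classes they were highest for 47 members in the pigmented and 48 in the albino library. The exception was Ttk in the pigmented library, which was highest in RPC-like cells. In transitional precursor-like cells the share was 0.131% and 0.104%, in photoreceptor-like cells 0.0717% and 0.0569%, in amacrine or horizontal-like cells 0.0433% and 0.0369% and in RGC-like cells 0.0313% and 0.0286%. Single cells weighed on these low values. The top cell held 20.7% and 9.71% of the mitosis UMIs of photoreceptor-like and 10.0% and 19.6% of those of amacrine or horizontal-like cells. The top pigmented photoreceptor-like cell had 43 members detected and 59 of the class's 127 Top2a UMIs. It held 21186 UMIs in all, against a class median of 7903, and the part of depth was not tested. With every cell weighted equally the order of the 3 cycling classes was the same, with means of 0.414% and 0.493% per CMZ-like cell, 0.602% and 0.588% per RPC-like cell and 0.913% and 1.01% per neurogenic-like cell.

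To count cells, each was thinned to 5000 UMIs, which left out 368 pigmented and 294 albino cells. At least 10 of the 48 members were then detected in 44.7% of pigmented and 50.1% of albino CMZ-like cells (intervals 41.6% to 47.9% and 45.6% to 54.7%). In RPC-like cells the shares were 58.7% (56.3% to 61.0%) and 61.3% (57.9% to 64.6%), and in neurogenic-like cells 69.6% (66.3% to 72.7%) and 71.9% (67.5% to 75.9%). The 3 classes stood in the same order in both libraries, and within each class the 2 libraries' intervals overlapped. Transitional precursor-like cells reached 7.52% and 6.62%, and RGC-like cells, known to be outside the cycle, 0.735% (4 of 544 cells) and 0.303% (2 of 661). The RGC-like shares are given as the background of this count. Those 4 and 2 RGC-like cells were deep before thinning, with medians of 23601.5 and 36821.5 UMIs, against 14575 and 14703 in the rest of the class. The part of depth was not tested. At full depth the shares were 58.3% and 65.1% in CMZ-like, 67.1% and 70.0% in RPC-like, 74.6% and 77.8% in neurogenic-like and 2.87% and 2.65% in RGC-like cells. The count of 10 members is a point on a continuous range: 93 and 61 CMZ-like, 172 and 102 RPC-like and 58 and 28 neurogenic-like cells had 8 to 11.

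**Figure D1:**
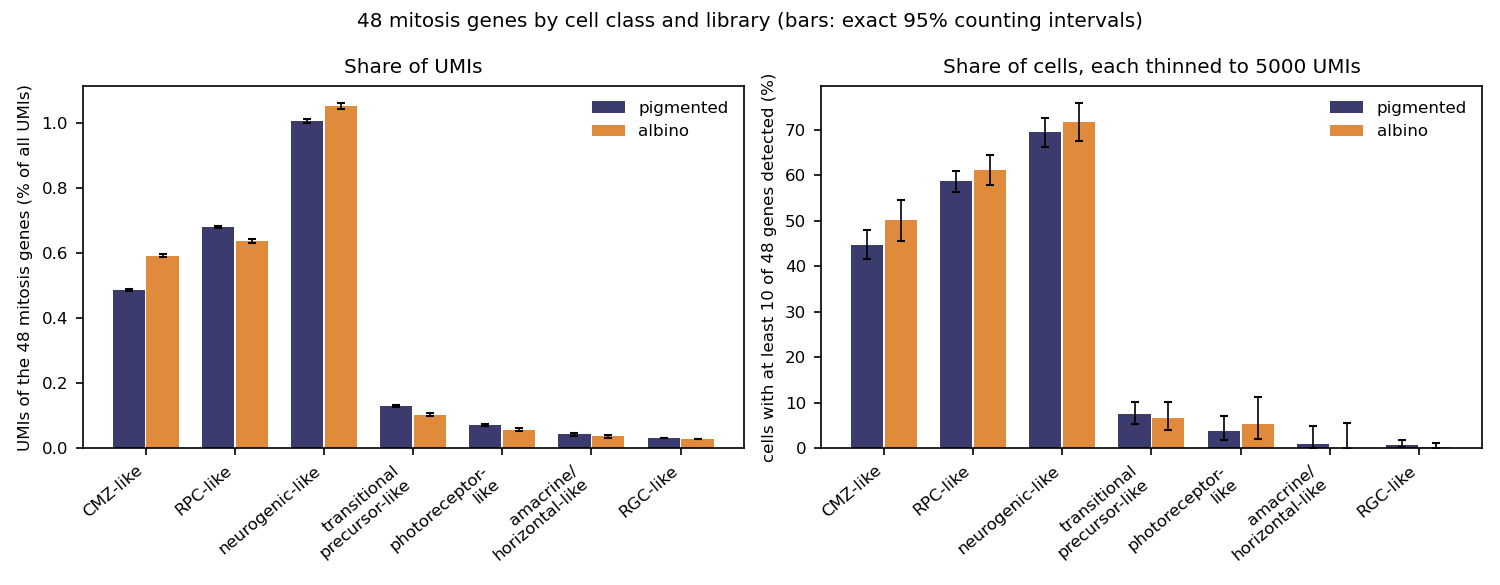
Left, UMIs of the 48 mitosis genes as a percentage of all UMIs of each class. Right, percentage of cells with at least 10 of the genes detected after thinning each cell to 5000 UMIs. Bars are the pigmented and albino library and error bars are exact 95% counting intervals. Neurogenic-like cells are highest in both panels, at 1.01% and 1.05% of UMIs, and the transitional precursor-like and postmitotic classes stay at or below 0.131% on the left.

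Among the cyclins and their kinase, Cdk1, the kinase that drives entry into mitosis, stood at 155 and 185 counts per 1000000 UMIs of the same cells (CPM) in pigmented and albino CMZ-like cells. It stood at 229.8 and 236 CPM in RPC-like, 369 and 391 CPM in neurogenic-like and 4.64 and 3.57 CPM in RGC-like cells. Cks2, a small subunit that binds Cdk1, stood at 320.1 and 362, 415 and 393, 618 and 599.7 and 43.6 and 38.4 CPM in the same 4 classes. Both libraries gave the order CMZ-like, RPC-like, neurogenic-like from low to high for both genes. Cyclin B2 (Ccnb2) differed from this order, with 100.4 and 103 CPM in CMZ-like and 110.1 and 94.5 CPM in RPC-like cells, so that in the albino library it was the CMZ-like value that was higher.

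Of the mitotic kinases and the chromosomal passenger complex, which corrects faulty attachments, Birc5 (survivin) stood at 326 and 396 CPM in CMZ-like, 416 and 436 CPM in RPC-like and 453 and 469.9 CPM in neurogenic-like cells. Its partner Cdca8 (borealin) stood at 191 and 209, 272 and 253 and 429 and 399 CPM. The kinase of the complex, Aurkb, stood at 60.7 and 71.0, 104 and 102 and 123 and 139 CPM. Within this one complex the step from RPC-like to neurogenic-like cells thus ranged from small for Birc5 to large for Cdca8. Aurka, the kinase of the spindle poles, stood at 33.8 and 37.9, 48.9 and 44.5 and 95.8 and 91.8 CPM, and about doubled between the last 2 classes.

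Ube2c, the ubiquitin-conjugating enzyme of the anaphase promoting complex, stood at 347 and 479.6 CPM in CMZ-like, 439 and 426 CPM in RPC-like and 785 and 876 CPM in neurogenic-like cells. Its activator Cdc20 stood at 70.9 and 91.8, 94.97 and 77.1 and 169 and 143 CPM. Cdca3, which helps to destroy the mitosis inhibitor Wee1, stood at 114 and 133, 153 and 139 and 216 and 221 CPM. For Ube2c and Cdc20 the CMZ-like value lay below the RPC-like one in the pigmented and above it in the albino library. The checkpoint kinase Ttk, which starts the checkpoint at unattached kinetochores, stood at 26.4 and 30.3, 45.1 and 42.2 and 43.3 and 49.04 CPM. The checkpoint protein Bub1b stood at 38.3 and 39.9, 42.5 and 35.8 and 49.2 and 52.2 CPM. Neither of these checkpoint genes showed the steep neurogenic-like step of Ube2c and Cdc20 in the pigmented library.

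Cenpa, the histone H3 variant that marks centromeres, stood at 294 and 354 CPM in CMZ-like, 328 and 282 CPM in RPC-like and 560.4 and 564 CPM in neurogenic-like cells. Cenpf, a large kinetochore and nuclear matrix protein, stood at 296 and 402, 437 and 351 and 593 and 596 CPM. Cenpe, the kinesin of the kinetochore, stood at 69.5 and 87.4, 94.4 and 82.8 and 173 and 196 CPM. All 3 were highest in neurogenic-like cells of both libraries, and in the albino library all 3 CMZ-like values lay above the RPC-like values. Ndc80, which grips the microtubule end, stood at 31.8 and 32.5, 47.1 and 50.2 and 68.7 and 72.1 CPM, with the CMZ-like value lowest in both libraries.

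The spindle motor Kif11, which pushes the poles apart, stood at 60.02 and 73.2, 87.9 and 94.0 and 109.6 and 135 CPM, and Kif20b, a kinesin of the midbody, at 55.8 and 64.5, 72.1 and 65.9 and 91.8 and 93.2 CPM. Nusap1, which bundles spindle microtubules, stood at 144 and 181, 245 and 224 and 362 and 421 CPM. Tpx2, which activates Aurora A, stood at 124 and 156, 166 and 152 and 308 and 316 CPM. These 4 shared the neurogenic-like maximum. Hmmr, a spindle-pole protein that works with Tpx2, stood at 55.0 and 74.3, 77.1 and 63.5 and 183 and 198 CPM, more than a doubling from RPC-like to neurogenic-like cells in both libraries. Aspm, a pole protein whose loss is known to cause small brains, stood at 49.1 and 66.3, 67.0 and 61.95 and 94.3 and 109 CPM, and Psrc1 at 33.4 and 40.4, 43.0 and 35.4 and 44.4 and 43.8 CPM.

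For cytokinesis, Prc1, which bundles the central spindle, stood at 114 and 155, 199.5 and 173 and 305 and 335 CPM and Racgap1, a part of centralspindlin, at 66.9 and 73.2, 96.5 and 87.9 and 117 and 119 CPM. Of the chromatin proteins, topoisomerase Top2a, which untangles sister chromatids, stood at 353 and 423, 544 and 518 and 888 and 944 CPM. The condensin core subunit Smc2 stood at 178 and 205, 233 and 241 and 360.5 and 360.1 CPM. All 4 were lowest in CMZ-like and highest in neurogenic-like cells among these 3 classes, in both libraries.

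**Figure D2:**
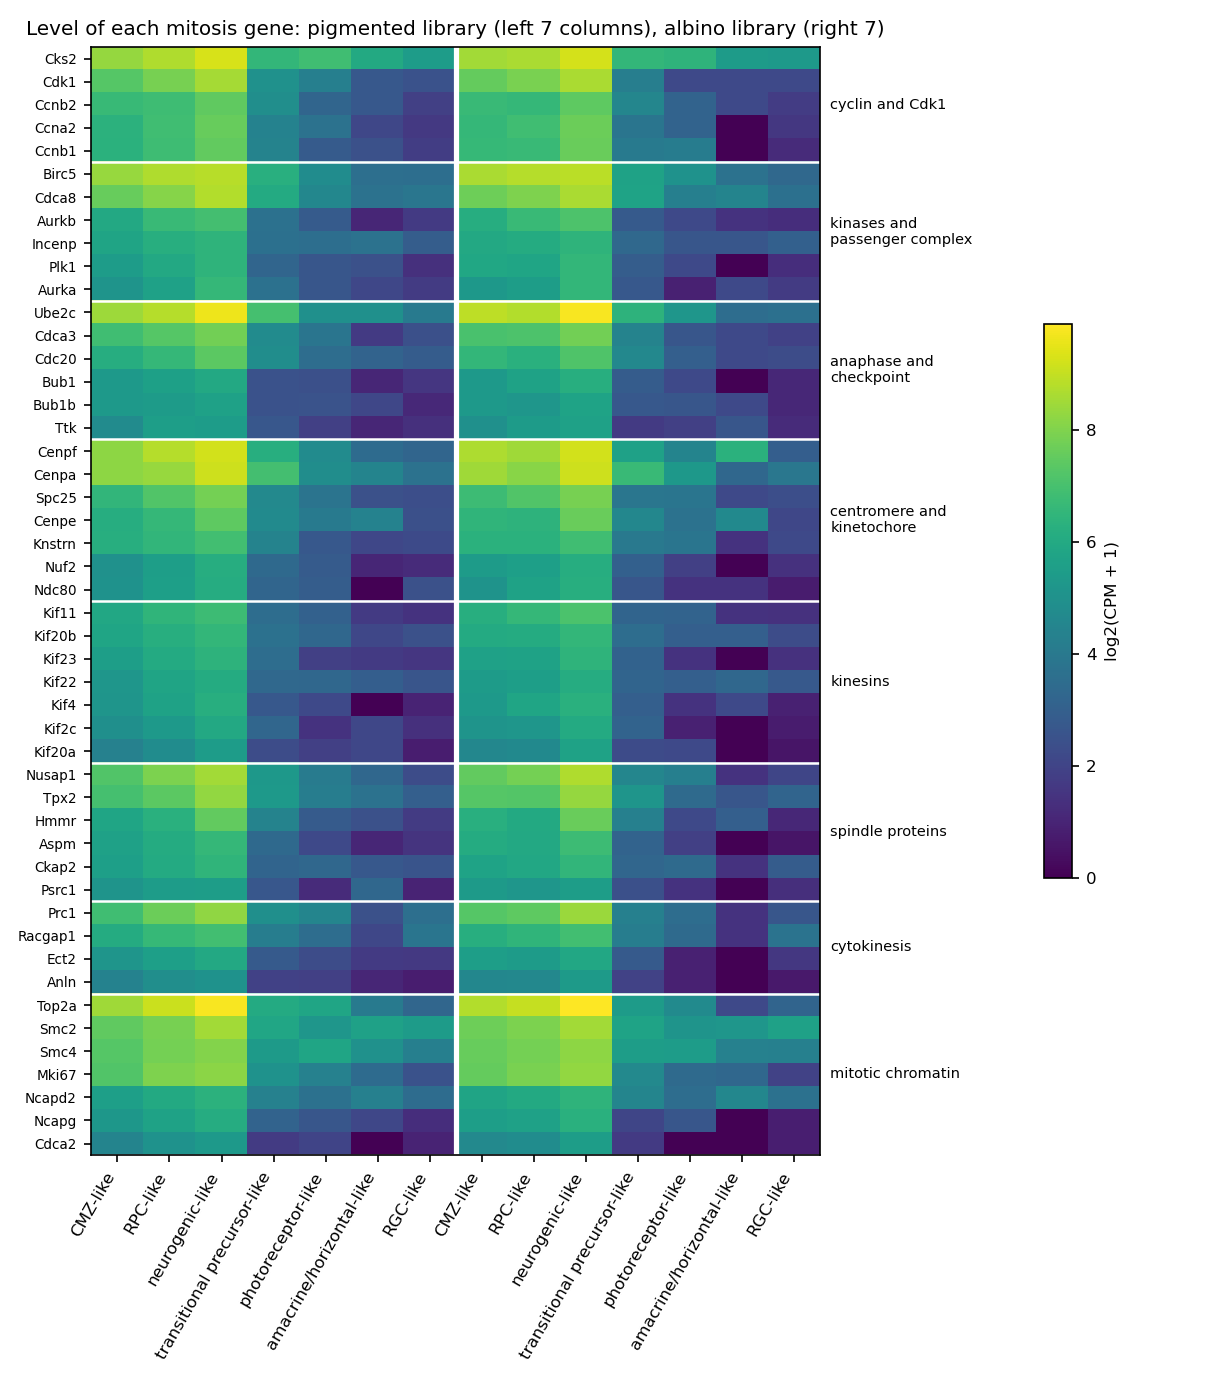
Level of each of the 48 mitosis genes (rows, grouped by role) in 7 retinal classes of the pigmented (left) and albino (right) library, as log2(CPM + 1). The third column of each block, neurogenic-like cells, is the brightest. The fourth, transitional precursor-like cells, is dimmer than those before it, with Ube2c and Cenpa among its brighter genes. The columns after it are dark apart from genes such as Smc2, Smc4 and Cks2.

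In neurogenic-like over RPC-like cells, 18 of the 48 members were at least 1.5-fold higher in both libraries and 0 were at least 1.5-fold lower, where 9.89% and 15.7% of 13331 genes were. The members' median log2 ratio was 0.50 in the pigmented and 0.66 in the albino library, beside -0.10 and -0.08 over all genes. For 45 members the interval of the ratio lay above 1 in both libraries. Interval counts were made for members only. No share over all genes stands beside counts by interval or by direction alone, here and below. The 3 with the highest ratios were Hmmr, at 2.37 (2.21 to 2.54) in the pigmented and 3.11 (2.82 to 3.44) in the albino library, Cenpe, at 1.84 (1.72 to 1.96) and 2.36 (2.16 to 2.59), and Aurka, at 1.96 (1.78 to 2.15) and 2.06 (1.81 to 2.35). The 3 with the lowest were Ttk, at 0.959 (0.851 to 1.08) and 1.16 (0.995 to 1.35), Birc5, at 1.09 (1.05 to 1.13) and 1.08 (1.03 to 1.13), and Psrc1, at 1.03 (0.916 to 1.16) and 1.24 (1.05 to 1.46). The interval of Ttk included 1 in both libraries. By role, the calls were 4 of 5 cyclin and Cdk1 genes, 2 of 6 kinase and passenger genes, 2 of 6 anaphase and checkpoint genes, 4 of 7 centromere and kinetochore genes, 2 of 7 kinesins, 2 of 6 spindle proteins, 1 of 4 cytokinesis genes and 1 of 7 chromatin genes.

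Both neurogenic-like clusters held this high level, at 0.940% and 0.988% of UMIs in cluster 2 and 1.15% and 1.17% in cluster 9, against 0.510% to 0.812% in the 3 RPC-like clusters over both libraries. The genes of DNA replication, 66 on a separate list, did not share it: they took 0.666% and 0.698% of the UMIs of RPC-like cells and 0.560% and 0.568% in neurogenic-like cells. Mitosis UMIs per replication UMI therefore came to 1.02 and 0.912 in RPC-like and to 1.79 and 1.85 in neurogenic-like cells, and to 0.988 and 1.12 in CMZ-like cells. Neurogenic-like cells also carried transitional precursor markers, at a summed 1354 and 1333 CPM over 8 genes against 60.2 and 48.7 CPM in RPC-like cells, and photoreceptor markers at 869 and 782 against 31.6 and 24.5 CPM. Neurog2, a marker that names the neurogenic-like class, differed with the members inside it. After thinning it stood at 584 CPM in pigmented neurogenic-like cells with at least 10 members and 248 CPM in the others. In the albino library the values were 481 and 182 CPM. The part of all these markers in the result was not tested.

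The step to neurogenic-like cells was also described by Atoh7 UMIs, over the thinned RPC-like, neurogenic-like and transitional precursor-like cells pooled. The clusters still decided which cells entered this pool. Counts of members that differ between bins were not made over all genes, so no share over all genes stands beside them. Cells with 0 Atoh7 UMIs (1531 pigmented and 736 albino) gave 0.609% and 0.585% mitosis UMIs. Those with 1 to 2 (196 and 112) gave 0.639% and 0.618%, those with 3 to 9 (104 and 66) 0.439% and 0.384%, and those with 10 or more (1206 and 669) 0.645% and 0.708%. The level therefore did not climb evenly with Atoh7: it was lowest at 3 to 9 UMIs in both libraries, where 42 and 45 of the 48 members lay below their level at 0. The bin at 3 to 9 held 37.5% and 34.8% transitional precursor-like cells. The bin at 10 or more mixes neurogenic-like cells (62.8% in both libraries) with transitional precursor-like cells (37.2% and 36.9%). Hmmr stood at 62.4, 68.4, 69.2 and 112 CPM over the 4 bins in the pigmented and 53.0, 60.7, 54.5 and 130.0 CPM in the albino library. Between 0 and 10 or more UMIs, 25 members were higher in the pigmented and 37 in the albino library. The medians over all 48 were 0.04 and 0.19 on the log2 scale. Replication UMIs went from 0.675% and 0.716% to 0.388% and 0.405%. The share of cells with at least 10 members also fell between these bins. It went from 57.9% to 47.2% in the pigmented and from 60.1% to 49.3% in the albino library. The intervals of the bins did not overlap within either library. The part of the transitional precursor-like cells in this fall was not tested.

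Mitosis genes took a smaller share of the UMIs of CMZ-like than of RPC-like cells, but not fewer UMIs per cell. CMZ-like cells held on average 71.3 and 89.1 mitosis UMIs per cell in the pigmented and albino library, and RPC-like cells, whose total UMIs were fewer, 69.8 and 67.0. No member was 1.5-fold lower or higher in both libraries (0 of 48, where 5.27% and 5.01% of all genes were), though 3 were lower with every cell weighted equally and 5 with classes from marker scores. The median log2 ratio was -0.49 in the pigmented and -0.13 in the albino library, beside -0.06 and -0.02 over all genes. The interval lay below 1 for 47 members in the pigmented library, and in the albino library for 22, with 5 above 1. The ratio itself was below 1 in the pigmented and above 1 in the albino library for 13 members. Neither the interval counts nor this one were made over all genes. Summed over the 48, CMZ-like over RPC-like was 0.717 (0.710 to 0.723) in the pigmented and 0.930 (0.919 to 0.941) in the albino library. The lowest members were Aurkb, at 0.583 (0.538 to 0.631) and 0.698 (0.627 to 0.776), Ttk, at 0.584 (0.517 to 0.660) and 0.717 (0.607 to 0.844), and Ndc80, at 0.676 (0.603 to 0.757) and 0.647 (0.553 to 0.755). The highest were Cenpa, at 0.897 (0.863 to 0.933) and 1.26 (1.19 to 1.32), Bub1b, at 0.901 (0.807 to 1.004) and 1.12 (0.953 to 1.30), and Ccnb2, at 0.912 (0.853 to 0.975) and 1.09 (0.988 to 1.199). Ratios of the 3 lowest lay below 1 in both libraries and those of the 3 highest on both sides of it.

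Within the CMZ-like class, cells with many mitosis genes had less Ccnd2 RNA, the D cyclin that marks this zone, than the others. After thinning it stood at 147 CPM in the 434 pigmented CMZ-like cells with at least 10 members and at 333 CPM in the other 536, and at 89.3 CPM in 242 and 184 CPM in 241 albino cells. Ccnd1 was nearly even, at 673 and 683 CPM in the pigmented and 718 and 790 CPM in the albino cells. RPC-like cells gave the same direction for Ccnd2 at a lower level, 24.6 and 53.3 CPM in the pigmented and 19.4 and 47.2 CPM in the albino library. In neurogenic-like cells the values were 11.3 and 21.2 CPM in the pigmented and, in the other order, 9.50 and 3.03 CPM in the albino library, levels of few UMIs from which no direction was read. Fgf15, an RPC marker, stood higher in the CMZ-like cells with many mitosis genes, at 329 against 205 CPM in the pigmented and 308 against 266 CPM in the albino library. Cells with at least 10 members were deeper before thinning, with medians of 15465.5 against 12832 UMIs in pigmented and 15155 against 11802 UMIs in albino CMZ-like cells, and the part of depth was not tested.

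Neurogenic-like over CMZ-like cells gave the widest step between cycling classes, with 40 of 48 members at least 1.5-fold higher in both libraries and 0 lower, where 11.1% and 16.5% of all genes were. Medians were 0.96 and 0.77 on the log2 scale. Hmmr, Aurka and Nusap1 were highest, at log2 ratios of 1.73 and 1.41, 1.502 and 1.28 and 1.32 and 1.22, and Psrc1, Birc5 and Bub1b lowest, at 0.41 and 0.12, 0.47 and 0.25 and 0.36 and 0.39. Each pair gives the pigmented library first.

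**Figure D3:**
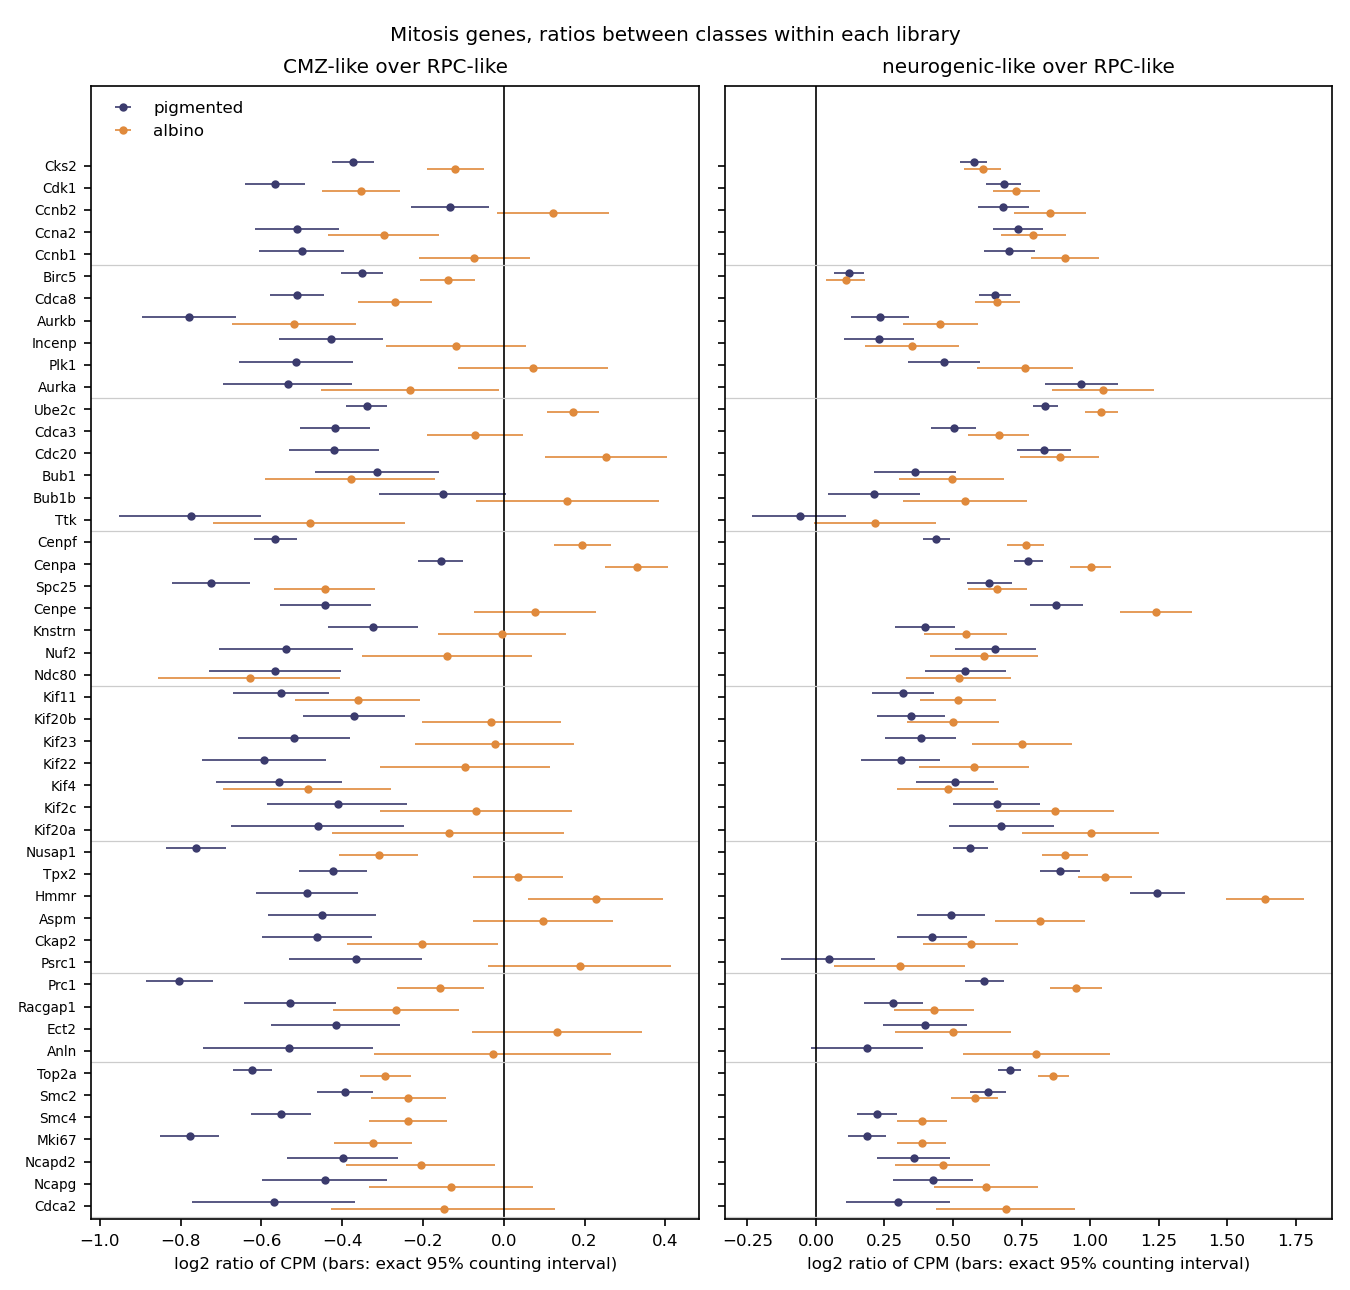
Log2 ratio of CPM for each mitosis gene, CMZ-like over RPC-like (left) and neurogenic-like over RPC-like (right), in the pigmented and albino library, with exact 95% counting intervals. On the left 47 pigmented intervals lie below 0 and the albino points sit to their right for most genes. On the right the intervals of 45 genes lie above 0 in both libraries, with Hmmr farthest.

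Postmitotic cells held the members at a small fraction of the progenitor level: all 48 were at least 1.5-fold lower than in RPC-like cells in both libraries and 0 were higher, where 26.7% and 22.2% of all genes were. The median log2 ratio was -4.46 in the pigmented and -4.94 in the albino library, and the summed ratio 0.0595 (0.0577 to 0.0613) and 0.0497 (0.0481 to 0.0513). Members differed in the size of this step. Aspm stood at 67.0 and 61.95 CPM in RPC-like and 2.11 and 0.662 CPM in postmitotic cells, Aurkb at 104 and 102 and 2.90 and 1.66 CPM and Cdk1 at 229.8 and 236 and 7.47 and 3.56 CPM, which were the 3 lowest ratios. Their postmitotic values rest on few UMIs, 24 and 8 for Aspm, 33 and 20 for Aurkb and 85 and 43 for Cdk1, so their order is loosely set. The condensin genes Ncapd2 (62.4 and 62.4 to 11.3 and 12.3 CPM) and Smc2 (233 and 241 to 41.5 and 46.9 CPM) and the centralspindlin gene Racgap1 (96.5 and 87.9 to 12.0 and 11.8 CPM) kept the most, at log2 ratios of -2.47 and -2.33, -2.49 and -2.36 and -2.997 and -2.89. In RGC-like cells alone all 48 were again lower and 0 higher (31.1% and 21.7% of all genes), with medians of -4.96 and -5.08. Over all postmitotic cells the 48 spanned log2 ratios from -5.18 to -2.47 in the pigmented and from -6.46 to -2.33 in the albino library.

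Between the cycling and the postmitotic state, transitional precursor-like cells, which carry Gal and Dlx1 RNA, also had all 48 members at least 1.5-fold lower than RPC-like cells and 0 higher (22.8% and 17.6% of all genes were), with medians of -2.59 and -2.79. Cenpa kept the most, at 120.0 and 103 CPM against 328 and 282 CPM in RPC-like cells, then Ncapd2, at 19.2 and 21.3 CPM, and Cdc20, at 27.5 and 23.2 CPM. The lowest were Cdca2, at 2.33 and 2.20 CPM (12 and 7 UMIs), Ttk, at 5.43 and 2.20 CPM (28 and 7 UMIs), and Aurkb, at 11.8 and 5.96 CPM (61 and 19 UMIs). Much of this RNA sat in few cells: of the thinned cells, 37 of 492 pigmented and 18 of 272 albino ones had at least 10 members. In each library 1 cell held 11.9% and 13.49% of the class's mitosis UMIs. These top cells had 27430 and 18572 UMIs in all, against class medians of 9662.5 and 10483, and the part of depth was not tested. In the cells with at least 10 members Ccnd1 stood at 97.3 and 122 CPM, against 51.9 and 40.9 CPM in the rest of the class.

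A single albino amacrine or horizontal-like cell set the Cenpf value of its class. Cenpf stood at 9.99 and 77.6 CPM in pigmented and albino amacrine or horizontal-like cells, and 1 of 73 albino cells held 37 of the 44 UMIs, with 2 in the next cell. That cell had 9957 UMIs, 3 members detected, 0 UMIs of Top2a, Cdk1, Mki67 and Ccnb2, and 8 of Onecut2, 3 of Ptf1a and 11 of Atoh7. It was looked at after its value was seen.

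The members parted into groups in 2 splits of the RPC-like cells by S-phase RNA. Cells were ranked by thinned UMIs of the 66 replication genes and, separately, of 67 histone genes, whose replication-dependent members are transcribed in S phase, and the 426 pigmented and 210 albino cells with the most were set against the rest. In the replication-rich cells 37 members were lower in both libraries and 7 higher (Incenp, Ttk, Ndc80, Anln, Top2a, Smc2 and Ncapg), with medians of -0.89 and -0.68. The share of cells with at least 10 members was not lower there, at 59.9% against 58.3% of the rest in the pigmented and 67.6% against 59.2% in the albino library. In the histone-rich cells 43 were higher in both, with medians of 0.85 and 0.86, and 98.8% of these pigmented cells and all 210 of the albino ones had at least 10 members, against 45.4% and 48.4% of the rest. Both lists and the members share depth per cell, which thinning made equal. The same counts over all genes were not made for these splits, so no share over all genes stands beside them.

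Cenpa, Cdc20, Ccnb2 and Knstrn were lower in both splits and in both libraries. Cenpa stood at 41.8 against 385 CPM in the pigmented and 46.7 against 361 CPM in the albino library in the replication-rich cells against the rest, and at 225 against 324 CPM in the pigmented and 207 against 308 CPM in the albino library in the histone-rich cells. Cdc20 had log2 ratios of -2.88 and -2.96 in the replication split and -0.19 and -0.43 in the histone split, Ccnb2 -2.32 and -2.54 and then -0.84 and -0.65, and Knstrn, a spindle adaptor of the kinetochore, -1.89 and -1.96 and then -0.77 and -0.37. Ube2c stood at -3.19 and -2.74 and 0.21 and 0.15. At the other end stood Ndc80, with 0.11 and 0.35 and 1.61 and 1.88, Top2a, with 0.24 and 0.11 and 1.81 and 1.56, and Aurkb, with -0.27 and 0.03 and 1.80 and 1.60. The 4 genes lower in both splits were picked after their values were seen.

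**Figure D4:**
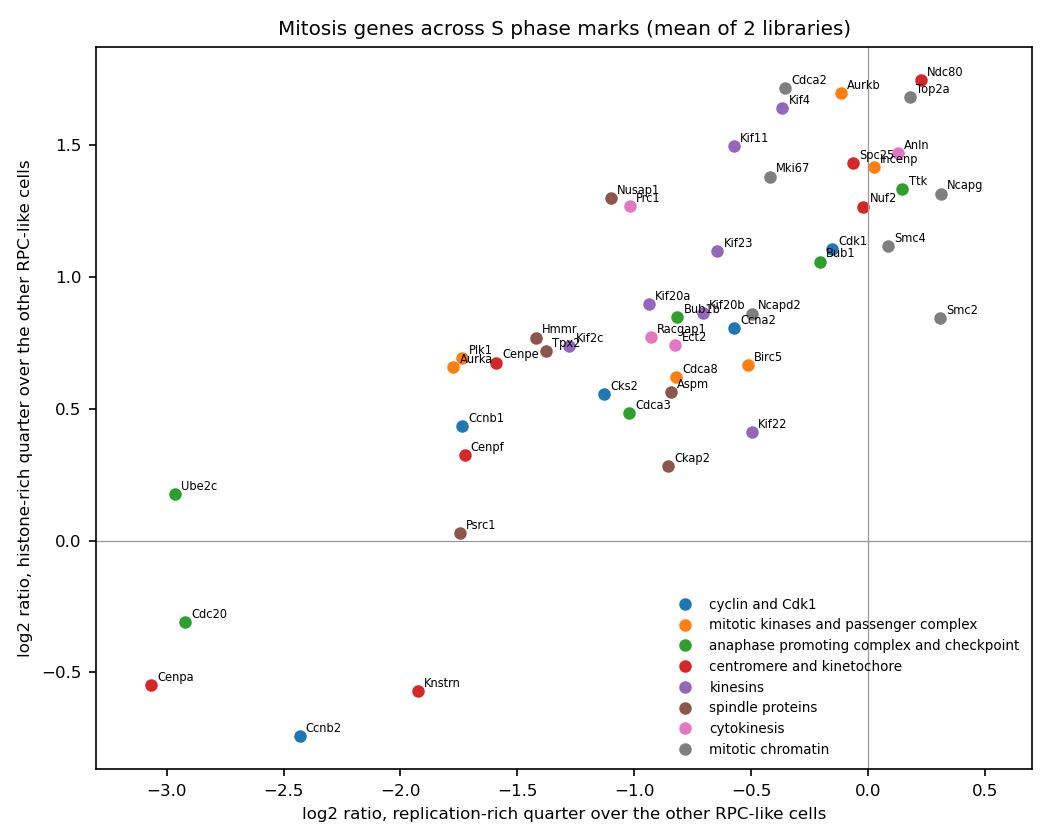
Each point is 1 mitosis gene in RPC-like cells, coloured by role, as the mean log2 ratio of the 2 libraries. The x axis is the replication-rich cells over the other cells and the y axis the histone-rich cells over the other cells. Most genes lie left of 0 and above 0, and Ccnb2, Cdc20, Cenpa and Knstrn lie below 0 on both axes.

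The make-up of the mitosis RNA also differed between classes when cells with at least 10 members were compared with each other. Shares here are of all mitosis UMIs of such cells, so that the number of cycling cells does not enter. The mix of cycle phases among these cells does enter, and its part was not tested. The shares are of a fixed total in cells picked by these same members, so larger shares of some go with smaller shares of others. The counts that follow were not made over all genes, so no share over all genes stands beside them. Over all cells of a class, mitosis UMIs per replication UMI were 1.02 and 0.912 in RPC-like and 1.79 and 1.85 in neurogenic-like cells. In neurogenic-like against RPC-like high cells, 7 members took a larger share in both libraries beyond counting error (Cdc20, Ube2c, Cenpa, Cenpe, Tpx2, Hmmr and Top2a) and 9 a smaller one (Aurkb, Birc5, Incenp, Ttk, Kif11, Psrc1, Racgap1, Mki67 and Smc4). Hmmr had share ratios of 1.63 (1.45 to 1.83) and 2.02 (1.71 to 2.39) in the pigmented and albino library, and Ttk 0.516 (0.421 to 0.630) and 0.640 (0.496 to 0.823). In CMZ-like against RPC-like high cells 3 were larger in both (Cdc20, Ube2c and Cenpa) and 6 smaller (Aurkb, Ttk, Spc25, Nusap1, Mki67 and Top2a). Cdc20, Ube2c and Cenpa were in both lists of larger shares, with CMZ-like ratios of 1.16 (1.01 to 1.33) and 1.47 (1.21 to 1.78), 1.11 (1.04 to 1.19) and 1.21 (1.12 to 1.32) and 1.25 (1.16 to 1.34) and 1.27 (1.15 to 1.40). They are also the 3 members with the lowest mean log2 ratio in the replication split.

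Between the 2 libraries, the members were lower over all albino cells and higher within the albino CMZ-like class. With all classes pooled, 47 of 48 were lower, with a median log2 ratio of -0.21 (-0.05 over all genes), and 8 were at least 1.2-fold lower and 0 higher, where 12.2% and 9.81% of all genes were. RGC-like cells made up 9.72% of pigmented and 19.6% of albino cells, and RPC-like cells 31.9% and 26.7%. The part of these shares in the value over all cells was not tested. At least 10 members were detected in 42.2% and 39.0% of all thinned cells. Kif23, a centralspindlin motor, had the lowest ratio, 0.760 (0.714 to 0.808), then Bub1b, 0.786 (0.731 to 0.846), and Cenpf, 0.802 (0.783 to 0.821). Ube2c had the highest, 1.02 (1.001 to 1.04), then Cdk1, 0.955 (0.927 to 0.983), and Birc5, 0.937 (0.916 to 0.958).

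In CMZ-like cells all 48 members were higher in the albino library, with a median of 0.25 on the log2 scale (-0.000871 over all genes). At least 1.2-fold higher were 21 members and 0 lower, where 8.74% and 8.49% of all genes were. For 33 members the interval lay above 1, a count not made over all genes. Ube2c had the highest ratio, 1.38 (1.32 to 1.44), then Prc1, 1.36 (1.26 to 1.46), and Cenpf, 1.36 (1.30 to 1.42). Bub1, a checkpoint kinase, had the lowest, 1.01 (0.875 to 1.16), then Ndc80, 1.02 (0.872 to 1.19), and Ccnb2, 1.02 (0.938 to 1.12). Spindle proteins (5 of 6) and centromere and kinetochore genes (5 of 7) were called most often, and of the cyclin and Cdk1 genes and the kinesins 1 each.

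The CMZ-like class was made of cluster 3 (585 pigmented and 229 albino cells) and cluster 6 (417 and 276). Within cluster 3 the members' median was 0.34, with 48 of 48 higher, and within cluster 6 it was 0.11, with 41 of 48 higher. The sum of the 48 was 1.31 times (1.29 to 1.33) and 1.10 times (1.08 to 1.12) the pigmented level in these clusters. The albino CMZ-like cell with the most mitosis RNA gave 3.53% of all mitosis UMIs there, and without the top cell of each library the class median was 0.24. Marker levels moved in the same cells: 1 of 10 CMZ markers was higher in albino CMZ-like cells (summed 1194 CPM pigmented, 947 CPM albino), against 8 of 10 RPC markers (3922 and 4291 CPM), 8 of 10 neurogenic markers (197 and 264 CPM) and 0 of 8 pigment epithelium markers (83.7 and 47.2 CPM). Their part in the higher mitosis level was not tested. Among cells with Xist and no Y-linked UMI the median was 0.39.

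In RPC-like cells the direction was the other one but small: 37 of 48 members were lower in the albino library, the median was -0.11 (-0.04 over all genes), and 6 were at least 1.2-fold lower and 0 higher, where 8.5% and 4.02% of all genes were. Kif23 was lowest, 0.786 (0.707 to 0.874), then Cenpf, 0.802 (0.771 to 0.835), and Cdc20, 0.811 (0.744 to 0.884). Kif4, a chromokinesin, was highest, 1.08 (0.966 to 1.196), then Kif11, 1.07 (0.985 to 1.16), and Ndc80, 1.07 (0.954 to 1.19). The 3 RPC-like clusters differed in sign, with medians of -0.17, 0.05 and -0.20 in clusters 0, 1 and 8. With every cell weighted equally 1 member was at least 1.2-fold lower or higher, and with median-of-ratios size factors 2 were.

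In neurogenic-like cells the members' median was nearest to 0 of the 3 cycling classes, with 39 of 48 members higher in the albino library, a median of 0.07 (-0.02 over all genes), and 2 at least 1.2-fold higher and 0 lower, where 5.52% and 9.43% of all genes were. The 2 were Anln, a scaffold of the cleavage furrow, at 1.26 (1.06 to 1.498), and Kif11, at 1.23 (1.12 to 1.35), followed by Kif20a, at 1.19 (1.02 to 1.38). Cdc20, at 0.845 (0.776 to 0.919), Cdca8, at 0.932 (0.885 to 0.981), and Knstrn, at 0.954 (0.866 to 1.05), were lowest. With every cell weighted equally 10 members were at least 1.2-fold higher. Among cells with Xist and no Y-linked UMI the median was -0.01.

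**Figure D5:**
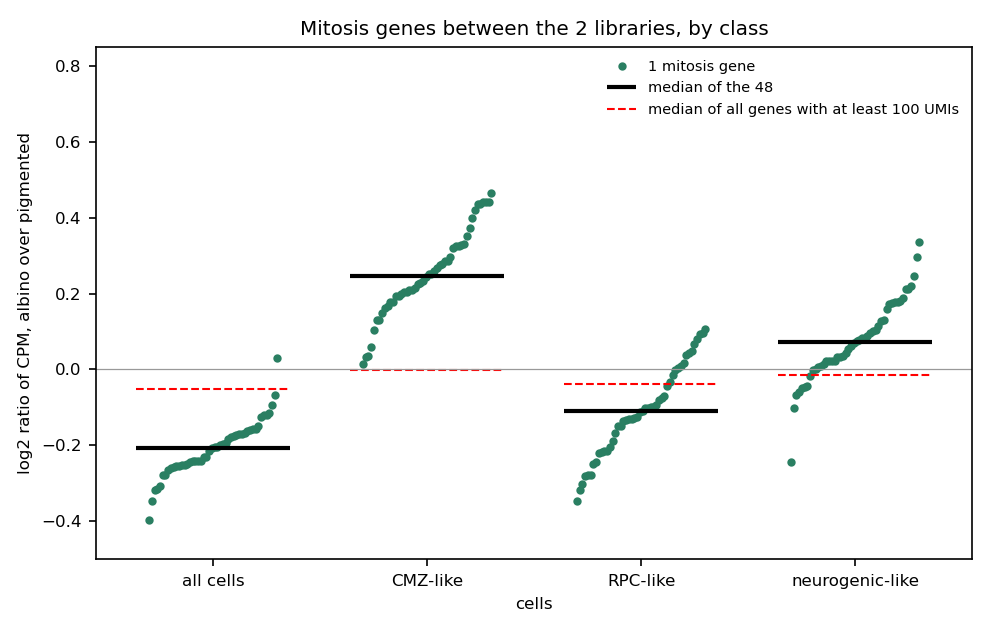
Log2 ratio of CPM, albino over pigmented, for each of the 48 mitosis genes (points, sorted within each column) over all cells and within 3 classes. Black lines are the members' medians and red dashed lines the medians of all genes with at least 100 UMIs. All 48 points lie above 0 in CMZ-like cells, and 47 lie below 0 over all cells.

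A second list of 71 other mitosis genes was counted beside the members. In neurogenic-like over RPC-like cells 15 of 71 were at least 1.5-fold higher in both libraries and 1 lower (Pkmyt1, a kinase that inhibits Cdk1). Of all genes 9.89% were higher and 15.7% lower. The medians of the 71 were 0.30 and 0.36. In CMZ-like over RPC-like cells 7 were lower and 0 higher, where 5.27% and 5.01% of all genes were, with medians of -0.48 and -0.26. In postmitotic over RPC-like cells 66 were lower and 2 higher, where 26.7% and 22.2% of all genes were, with medians of -3.78 and -4.15. The 2 higher ones were the kinetochore genes Cenpt, at 12.1 and 11.6 CPM in RPC-like and 25.5 and 20.9 CPM in postmitotic cells, and Zwint, at 126 and 123 and then 210 and 224 CPM. Both were named after their values were seen. In albino over pigmented CMZ-like cells 20 of 70 with enough UMIs were higher and 0 lower, where 8.74% and 8.49% of all genes were. Of all 71, 62 were above 1. Of those with the most UMIs, the chromatin protein gene Hmgb2 stood at 2539 and 2390 CPM in RPC-like and 3731 and 3728 CPM in neurogenic-like cells, Cks1b at 472 and 499.5 and then 654 and 698 CPM, and the tubulin gene Tubb4b at 413 and 379.5 and then 517 and 470.5 CPM.

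Each member was also set against the sum of the other 47 across RPC-like cells (1831 pigmented and 924 albino cells). Pearson's r had a median of 0.56 in the pigmented and 0.52 in the albino library, as a description over cells that share 1 library each. The highest were Birc5, at 0.81 and 0.78, and Cenpf, at 0.77 and 0.72, and the lowest Anln, at 0.36 and 0.28. Outside the 48, the genes most like their sum, by the lower r of the 2 libraries, included Hmgb2 (0.82 and 0.80), the histone variant gene H2afx (0.72 and 0.69), Ube2s, a further enzyme of the anaphase promoting complex (0.62 and 0.61), Pimreg (0.59 and 0.58), Lockd, a noncoding RNA beside Cdkn1b (0.57 and 0.58), Hist1h2ap (0.56 and 0.56), Arl6ip1 (0.59 and 0.55), Tacc3 (0.53 and 0.53), Pbk (0.54 and 0.53), Tubb4b (0.52 and 0.56), Hist1h2ae (0.55 and 0.52), Hist1h1b (0.54 and 0.51), Knl1 (0.53 and 0.51) and Ckap2l (0.54 and 0.51). Of the first 40 such genes, 17 were on the list of other mitosis genes.

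By position on GRCm38, the members the results turn on most are Hmmr (ENSMUSG00000020330, chromosome 11, 40701395 to 40733422, minus strand), Cenpa (ENSMUSG00000029177, chromosome 5, 30666777 to 30674830, plus strand), Cdc20 (ENSMUSG00000006398, chromosome 4, 118432901 to 118437352, minus strand), Ube2c (ENSMUSG00000001403, chromosome 2, 164769898 to 164778822, plus strand), Ttk (ENSMUSG00000038379, chromosome 9, 83834689 to 83872389, plus strand) and Top2a (ENSMUSG00000020914, chromosome 11, 98992943 to 99024189, minus strand). In GENCODE vM21, exons of 12 of the 48 overlap those of a gene on the opposite strand, among them Cdc20 (Elovl1) and Ube2c (Tnnc2), and Top2a holds a small nucleolar RNA gene on its own strand. No source at hand gives the strand setting of the count step, so reads of such pairs may be mixed.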

How the data were processed

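Droplet single-cell RNA-seq counts of 1 pigmented and 1 albino library were used as deposited. The authors made these counts, whole UMIs per gene and cell that were not normalized, with Cell Ranger 2.1.1 on mm10 per the submitters' processing notes, while the file headers name version 5.0.1. The annotation release is not stated in the sources at hand. Barcodes with under 500 genes or over 10% mitochondrial UMIs were left out, as were Scrublet doublets at a score of 0.25 (142 pigmented, 50 albino). Of 6089 and 3676 barcodes, 5741 and 3462 remained. Total UMIs set the precision of each value.

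Cells were clustered with scanpy 1.11.5 and leidenalg 0.10.2 (2000 genes, 30 components, 15 neighbours, resolution 1.0) without 210 cell cycle genes and 464 genes correlated with them. Class markers were not left out for such a correlation. Clusters were named from 14 marker lists by a rule set after the clusters were seen, which let the adjacent neurogenic and transitional precursor stages share markers. Clusters that met no name, 233 and 121 cells, stayed unnamed.

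UMIs were summed per class and library and divided by the class's total (CPM), with 0.5 UMIs added to each sum for log2 ratios. Genes with at least 100 UMIs entered. A member was called between classes at 1.5-fold in both libraries and between libraries at 1.2-fold. Ratio intervals are exact conditional, shares exact Clopper-Pearson and levels exact Poisson intervals (scipy 1.17.1, numpy 2.4.6, pandas 2.3.3, Python 3.11.15). Named genes are the 2 members with the most UMIs per role, the 3 highest and 3 lowest per contrast, the 3 other mitosis genes with the most UMIs and the first 15 by likeness, of which 1 is not reported here; other names were picked after their values were seen. The steps were tested on simulated counts. The members, lists and rules were chosen with earlier results of these data known. Alternatives changed the weight of cells, scaling, filters, doublets, clustering, naming, sex of cells, single cells and thinning depth.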

Additional observations from a re-analysis of the deposited data

Results flagged for a closer look

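The members' median log2 ratio of albino over pigmented had opposite signs in 2 cell classes, 0.25 in CMZ-like and -0.11 in RPC-like cells. This difference was not tested. Over all genes the medians were -0.000871 and -0.04. The RPC-like clusters differed in direction, with summed member ratios of 0.903 in cluster 0, 1.03 in cluster 1 and 0.862 in cluster 8. Over all RPC-like cells the ratio was 0.936, and 0.977 with every cell weighted equally.

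The CMZ-like over RPC-like ratio lay below 1 in the pigmented and above 1 in the albino library for 13 members, and for 5 of these both counting intervals left out 1. The ratios of the 5 were 0.747 and 1.19 for Cdc20, 0.790 and 1.13 for Ube2c, 0.897 and 1.26 for Cenpa, 0.676 and 1.14 for Cenpf and 0.714 and 1.17 for Hmmr, pigmented first. These differences were not tested, and each rests on 1 library per group. The counts of 13 and 5 were not made over all genes.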

How the results depend on the processing

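Of 96 medians recomputed under the alternatives, 85 stayed between the medians of the members' own lower and upper interval bounds. That band is as wide as the interval of a typical single member, not of a median over all members, so it is lenient. Of 48 shares 28 stayed within the counting interval of the main share, and 42 of 54 counts stayed within 1.5 times. The albino over pigmented median in neurogenic-like cells turned to -0.014 among cells with Xist and no Y-linked UMI. The pigmented CMZ-like over RPC-like median was -0.65 with cell cycle genes kept in the clustering, -0.66 with classes from marker scores, -0.72 among cells with Xist and no Y-linked UMI and -0.62 with only the cell cycle lists left out. The count of members lower there in both libraries was 3 with every cell weighted equally, 1 with cycle genes kept, 5 with marker scores, 4 with doublets kept and 4 with only the lists left out. Neurogenic-like over RPC-like medians were 0.82 and 0.96 (pigmented, albino) with only the lists left out and 0.62 in the pigmented library with close clusters left unnamed. Postmitotic medians were -3.27 and -3.82 with marker scores. The albino over pigmented median over all cells was -0.090 with every cell weighted equally. Members called between libraries in RPC-like cells numbered 1 with every cell weighted equally, 2 with median-of-ratios size factors, 2 with cycle genes kept, 3 with marker scores and 2 with only the lists left out. In neurogenic-like cells they numbered 10 with equal weights and 16 with marker scores. Shares of cells with at least 10 members, thinned to 3000 UMIs, were 35.3% and 39.3% in CMZ-like, 48.1% and 46.2% in RPC-like and 60.9% and 66.2% in neurogenic-like cells and 0.350% in albino postmitotic cells. With cycle genes kept they were 40.6% and 45.2% in CMZ-like and 78.4% and 83.8% in neurogenic-like cells. With marker scores they were 40.3% in pigmented CMZ-like, 63.6% in pigmented neurogenic-like and 3.89% and 3.12% in postmitotic cells, and with doublets kept 2.67% in pigmented postmitotic cells. In neurogenic-like cells they were 84.7% and 86.8% with only the lists left out and 60.3% and 66.3% with close clusters left unnamed. These last 2 alternatives were chosen after seeing the data. The cause of each shift was not tested. No paired analysis was possible because each group is 1 library.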
